A study of Caenorhabditis elegans with 12 samples.

Results

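The comparison is between whole wild-type (N2) Caenorhabditis elegans fed bacteria for combined RNA interference (RNAi) of hsp-6 and dve-1 and N2 worms fed the empty vector. It rests on 3 hsp-6;dve-1-labelled arrays and 3 empty vector arrays, 6 of the 12 Affymetrix expression arrays in the series. The other 6 arrays are of N2 worms on hsp-6 RNAi alone or on hsp-6 with hsf-1 RNAi, 3 arrays each, and share in the estimate of the spread. In all 4 groups adults were placed on RNAi plates of Escherichia coli HT115 on day 1 of adulthood, kept there for 3 days by the protocol and labelled day 3 adults, with progeny removed by washing in M9 buffer. All non-control probe sets with a log2 value above 4 in at least 3 of the 12 arrays were taken, which gave 12057 of 22625 probe sets, for 9172 of the 17118 genes that have a probe set of their own. At that threshold, 97 probe sets cleared it narrowly, with the deciding array between 4 and 4.1, and 107 missed it narrowly, with that array between 3.9 and 4. The labels do not say whether the 3 replicates were separate cultures, so p-values measure only the spread between these samples. Whole worms were used, so fewer cells of a type and less RNA per cell cannot be told apart.

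hsp-6 encodes the mitochondrial Hsp70 chaperone, which pulls proteins into the matrix and folds them there. When it is lacking, worms switch on the mitochondrial unfolded protein response, in which the homeodomain protein DVE-1 moves to the nucleus and acts at chaperone genes such as hsp-6 and hsp-60 beside the transcription factor ATFS-1. Loss of hsp-6 also switches on cytosolic heat shock genes through HSF-1, the heat shock transcription factor. A separate programme, the intracellular pathogen response, is known in C. elegans from infection with microsporidia or the Orsay virus and from proteasome blockade, and it includes many pals genes and a CUL-6 ubiquitin ligase.

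The RNAi targets did not all follow the labels. dve-1 read 8.15, 8.90 and 7.14 on the log2 scale in replicates 1, 2 and 3 labelled hsp-6;dve-1, and 5.47, 5.47 and 5.58 in the empty vector arrays. Every array labelled hsp-6;dve-1 was thus above every control array at this probe set. The group means differed by 2.55 (SE 0.57, adjusted p = 0.0468) in limma's fit. The call was lost with the replicate number as a block (adjusted p = 0.0816), with no filter and with the compared groups alone. It was also lost in 9 of the 12 fits that left out 1 array, among them the fit without replicate 2 (adjusted p = 0.172). A second dve-1 probe set stayed between 4.56 and 5.31 in these 6 arrays. Where either probe set lies relative to the RNAi insert was not known, and the arrays are therefore referred to by their label.

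hsp-6 itself read 10.26, 10.06 and 9.13 in the hsp-6;dve-1-labelled arrays and 11.30, 10.96 and 11.10 in the empty vector arrays. It fell by 1.3 (SE 0.30, adjusted p = 0.0498), with no overlap between the groups. The call was lost in 9 of the 12 fits that left out 1 array (adjusted p up to 0.17), and with the compared groups alone. In hsp-6 RNAi alone the same probe set read 6.96, 6.97 and 6.60, so the hsp-6;dve-1-labelled arrays lay 2.98 higher than these (adjusted p = 0.000859). A second hsp-6 probe set was 1.67 below the empty vector mean without passing the test (a difference of -1.67, adjusted p = 0.0550). hsf-1, targeted in another group, read 8.12, 6.87 and 8.04 against 8.63, 8.26 and 8.80, a difference of -0.89 that did not pass (adjusted p = 0.127).

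**Figure D1:**
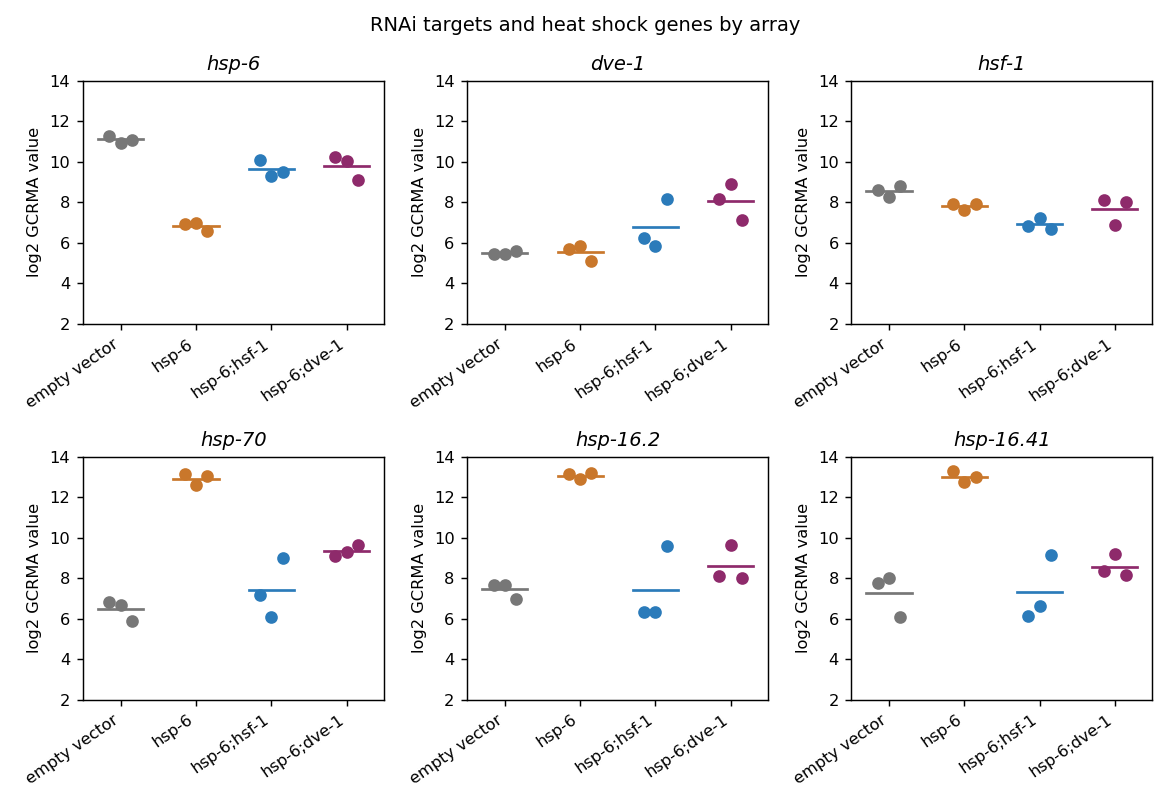
log2 GCRMA values of the 3 RNAi targets and 3 heat shock genes in each of the 12 arrays; points are arrays and lines are group means, by RNAi group. dve-1 lies at 7.14 to 8.90 in the hsp-6;dve-1-labelled arrays against 5.47 to 5.58 in the empty vector arrays, and hsp-70 is above the empty vector arrays but far below hsp-6 RNAi alone.

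The arrays varied most along a first principal component with 56.5% of the variance. On it, replicate 2 labelled hsp-6;dve-1 and hsp-6;hsf-1 replicate 3 stood farthest from the empty vector arrays, and replicate 3 labelled hsp-6;dve-1 was the nearest of its group to them. The 3′ minus 5′ log2 signal of the actin control probe sets, a sign of RNA quality, was 1.5 to 1.77 in the hsp-6;dve-1-labelled arrays and 1.81 to 2.03 in the empty vector arrays. That of the GAPDH control was 0.04 to 0.17 against 0.37 to 0.82, and that of ubiquitin 3.25 to 3.37 against 3.00 to 3.26. The part of these values in the results was not tested. GCRMA values do not go below 2.16, so the size of differences measured against that minimum is uncertain.

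More genes rose than fell, and the rises were the larger changes. 211 probe sets were higher (1.75% of those tested) and 63 were lower (0.523%), 274 in all (2.27%), at an adjusted p below 0.05. The rises had a median of 2.14 on the log2 scale and 200 of them were over 2-fold, while the falls had a median of -1.07 and 40 were over 2-fold. Their starting levels differed as well, since 60 of the 211 rises began from an empty vector mean at or below log2 4 and 58 of the 63 falls from a mean above log2 6. The median difference of all tested probe sets was -0.10. Unadjusted p-values below 0.05 were split evenly, with 1615 higher and 1619 lower. For comparison, the 3 hsp-6;dve-1-labelled arrays were all above the 3 empty vector arrays in 14.3% of tested probe sets and all below them in 18.2%.

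How many probe sets passed depended on single arrays. With the replicate number as a block, 131 were higher and 18 lower, and 134 of these calls were among the 274. Without empty vector replicate 3 the counts were 38 and 5, without empty vector replicate 1 they were 40 and 6, and without replicate 2 labelled hsp-6;dve-1 they were 57 and 4. Without replicate 3 labelled hsp-6;dve-1 they were 800 and 238, and without hsp-6;hsf-1 replicate 3 they were 549 and 351. 34 of the rises and 1 of the falls held whichever single array was left out, and all 35 also held with the block. No called probe set changed sign in any of the 23 alternatives.

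**Figure D2:**
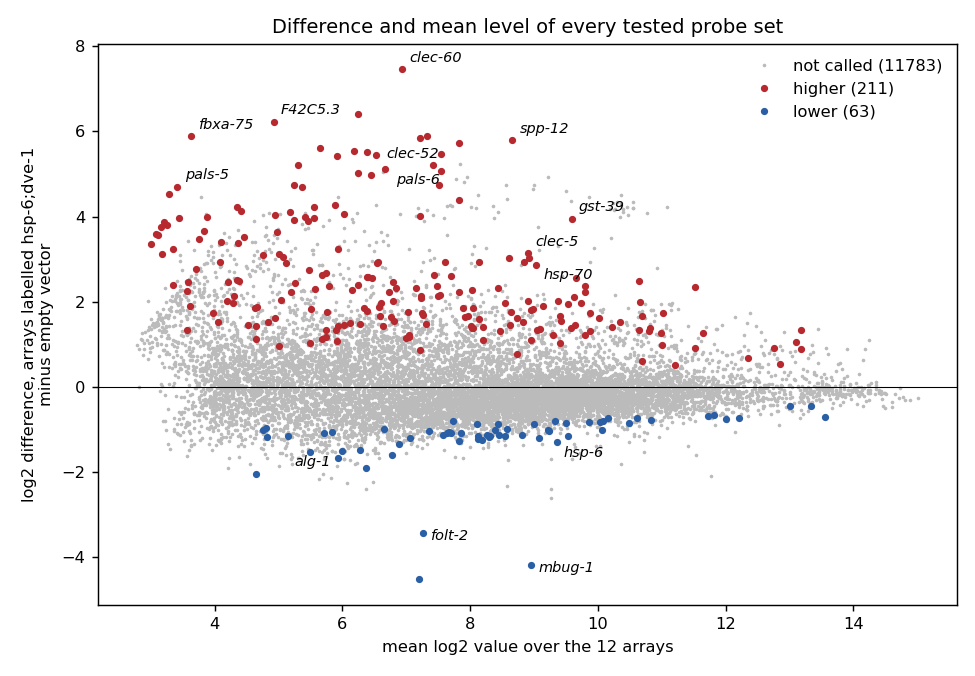
Each point is 1 of 12057 tested probe sets, with its mean log2 value over the 12 arrays (x axis) and its log2 difference between the hsp-6;dve-1-labelled arrays and empty vector (y axis). The 211 rises reach 7.45 and start at all levels, while nearly all of the 63 falls are shallower than -2.

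The pals genes, a family of largely unknown biochemical function that marks the intracellular pathogen response, were higher in part. Of 12 tested pals genes 7 rose and none fell, with a median difference of 3.31, against 1.94% of all genes higher, 0.349% lower and a median of -0.04 over all genes. Their summed level, on the log2 scale, was 9.88, 10.24 and 12.46 in the hsp-6;dve-1-labelled arrays and 7.94, 8.24 and 8.07 in empty vector. In hsp-6;hsf-1 RNAi the sum was 8.03, 8.81 and 9.62. Of the 7, pals-5 and pals-11 were called against that group. Both passed the filter through the hsp-6;dve-1-labelled arrays alone. pals-6, pals-29 (3.65, adjusted p = 0.166), pals-31, pals-32 and pals-33 were not called against it. pals-5, whose promoter is the usual reporter of the response, read 5.70, 5.75 and 9.12 in the hsp-6;dve-1-labelled arrays and 2.16 in all 3 empty vector arrays. It was thus at the minimum in every control array and clearly above it in every array labelled hsp-6;dve-1, highest in replicate 3. Its difference was 4.70 (SE 0.73, adjusted p = 0.0134).

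pals-6 read 8.60, 9.12 and 11.20 against 4.81, 5.26 and 3.52, a difference of 5.11 (SE 0.84, adjusted p = 0.0179). pals-11 read 5.31, 5.64 and 9.12 against the minimum of 2.16 in each of the other 9 arrays, a difference of 4.53 (SE 0.76, adjusted p = 0.0194). Both showed the same order, with replicate 3 the highest. pals-32 (3.99), pals-29 (3.87), pals-33 (3.53) and pals-31 (2.23) also rose, with adjusted p from 0.0304 to 0.0498. With the replicate block 5 of the 12 passed, and pals-31 (adjusted p = 0.0550) and pals-33 (adjusted p = 0.0507) did not. None passed without empty vector replicate 1, without empty vector replicate 3, with no filter or with the other 6 arrays left out of the fit. With values below 4 set to 4, 2 passed, the median was 2.17, and pals-5 (2.86) and pals-11 (2.69) lost their calls. With a filter at log2 6, 5 pals genes were tested and 3 passed, with a median of 2.23. Of the 12, 3 passed without hsp-6 replicate 1 or 3 and 4 without hsp-6 replicate 2 or empty vector replicate 2.

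The 5 tested pals genes that did not pass were pals-38 (3.09, adjusted p = 0.0535), pals-27 (1.98), pals-23 (1.12), pals-25 (0.36) and pals-22 (0.04). pals-22, a known brake on the response, read 6.10, 6.22 and 6.21 against 6.07, 6.30 and 6.04, and its groups overlapped. pals-25, which opposes pals-22 and switches the response on, read 5.32, 4.67 and 5.84 against 5.40, 5.53 and 3.80, also overlapping.

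Of the 23 pals genes on the array, 11 did not pass the filter on low values, and 3 of the 12 tested (pals-5, pals-11 and pals-29) passed it through the hsp-6;dve-1-labelled arrays alone, so their calls follow in part from the filter. 22 tested probe sets passed in that way, and 21 of them were called higher. Among the 11 untested genes, pals-28 read 2.76, 3.05 and 8.59 in the hsp-6;dve-1-labelled arrays and 2.16 in the other 9. pals-4 read 2.42, 2.25 and 6.78, again from 2.16 elsewhere. pals-2 (7.47), pals-37 (6.87), pals-30 (6.81), pals-1 (5.88) and pals-12 (5.26) were also highest in replicate 3. In 4 of the 11, all 3 hsp-6;dve-1-labelled arrays were above all empty vector arrays, beside 14.3% of tested probe sets. In replicates 1 and 2 that margin could be small and near the minimum. There pals-1 read 2.67 and 2.55 against 2.35 to 2.36 in empty vector, and pals-37 read 3.75 and 4.23 against at most 2.36. Probe sets of such closely related genes may share target sequence.

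The CUL-6 ubiquitin ligase of the same response rose at all 5 of its tested members. This list was written after its values were seen, so its count is a description. cul-6, the cullin scaffold, rose by 2.22 (adjusted p = 0.0498), and the Skp1-related adaptors skr-5 by 2.14, skr-3 by 1.96 and skr-4 by 1.93 (adjusted p from 0.0271 to 0.0366). cul-6 read 7.11, 7.30 and 8.86 against 5.76, 6.17 and 4.69, without overlap. With the replicate block the 3 skr genes kept their calls and cul-6 did not (adjusted p = 0.0745), and fbxa-75 alone of the list passed without replicate 2 labelled hsp-6;dve-1, empty vector replicate 1 or 3, or hsp-6 replicate 1 or 3. Without hsp-6 replicate 2 the count was 2, without empty vector replicate 2 it was 3, and with the 2 compared groups alone it was 0.

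fbxa-75, the F-box protein of that ligase, which picks its substrates, was at or near the minimum everywhere else. It read 7.68, 6.13 and 10.32 in the hsp-6;dve-1-labelled arrays, and 2.16 or 2.17 in each of the other 9 arrays. Every array labelled hsp-6;dve-1 was thus at least 3.96 above every other array. It rose by 5.89 against empty vector (SE 0.76, adjusted p = 0.00571), by 5.89 against hsp-6 RNAi (adjusted p = 0.00281) and by 5.88 against hsp-6;hsf-1 RNAi (adjusted p = 0.00865), and the first call held whichever array was left out. It was lost in a fit of the 2 groups alone (adjusted p = 0.0736). fbxa-75 too was tested through the hsp-6;dve-1-labelled arrays alone, so its calls follow in part from the filter.

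fbxa-158, the other F-box partner of CUL-6, did not pass the filter. It read 2.57, 3.81 and 6.58 against 2.16, 2.16 and 2.41. eol-1, a relative of the mammalian decapping enzyme DXO, belongs to the same response. It read 8.64, 8.41 and 11.88 against 4.22, 4.78 and 3.40, without overlap, and rose by 5.51 (SE 0.86, adjusted p = 0.0139). In hsp-6;hsf-1 RNAi eol-1 read from 6.25 to 7.26, above every empty vector array. It was not called against that group (2.81, adjusted p = 0.892). F26F2.3 and F26F2.4, further genes of the response, lay 4.06 and 4.46 higher but did not pass (adjusted p = 0.0755 and 0.0920), and each read highest in replicate 3.

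**Figure D3:**
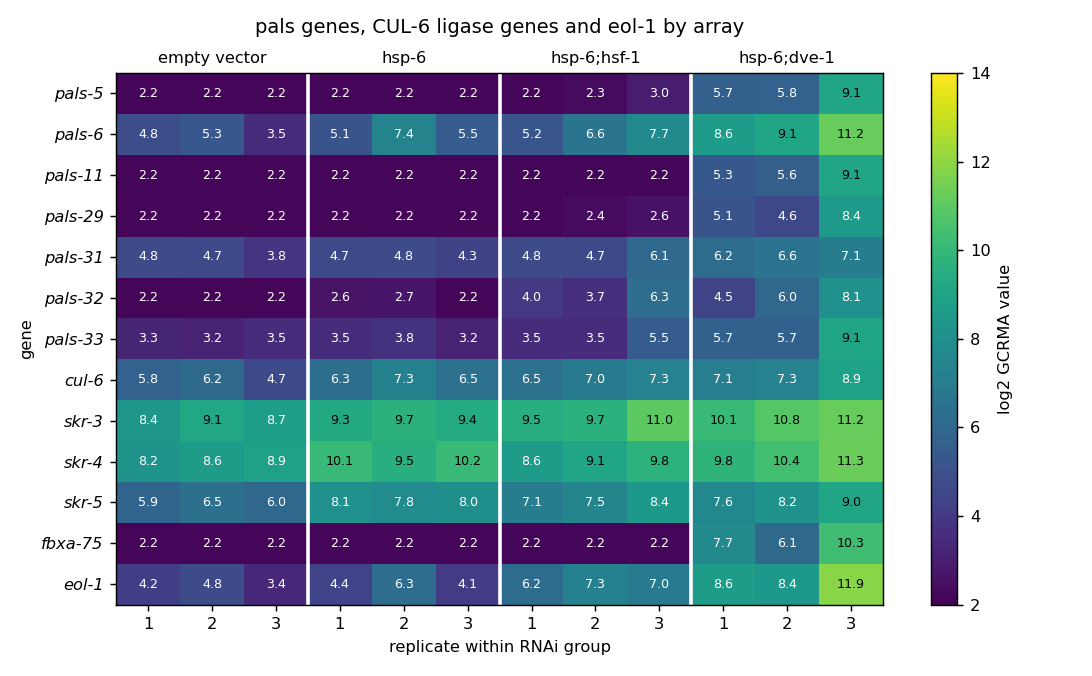
log2 GCRMA values of 7 pals genes, 5 genes of the CUL-6 ubiquitin ligase and eol-1 (rows) in the 12 arrays (columns, replicates within RNAi group); colour and number give the value. pals-5, pals-11, pals-29 and fbxa-75 are at or near the minimum of 2.16 in the other 9 arrays, and the 13 genes read highest in replicate 3 of the hsp-6;dve-1-labelled arrays.

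Of 104 tested F-box genes, 7 rose and none fell, against 1.94% of all genes higher and 0.349% lower. The median was -0.17, so most of this family did not follow fbxa-75. The others were fbxa-182 (3.12), fbxa-6 (3.1), fbxa-157 (3.05), fbxa-163 (2.90), fbxa-164 (2.75) and fbxa-27 (1.52). fbxa-163 and fbxa-164, which lie next to each other in the genome annotation, read 7.38, 7.52 and 8.20 and 6.04, 7.17 and 7.77 in the hsp-6;dve-1-labelled arrays. Their empty vector arrays lay between 4.25 and 5.60 and between 4.12 and 4.33. In hsp-6 RNAi alone fbxa-163 read from 6.74 to 8.20, and the difference from it was 0.05 (adjusted p = 0.958). With the replicate block fbxa-157 (adjusted p = 0.0707) and fbxa-27 (adjusted p = 0.0587) lost their calls. The count was 1 without empty vector replicate 3, 3 without hsp-6 replicate 2, and 2 without empty vector replicate 1 or 2, hsp-6 replicate 1 or 3, or replicate 2 labelled hsp-6;dve-1.

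C-type lectin genes, many of which code for secreted carbohydrate-binding proteins that rise on bacterial infection, included 4 called rises. These were among 61 tested, beside 1.94% of all genes higher. clec-60 read 10.21, 11.73 and 9.89 in the hsp-6;dve-1-labelled arrays and 4.30, 2.56 and 2.62 in the empty vector arrays, a difference of 7.45 (SE 1.00, adjusted p = 0.00645). All 3 arrays were more than 5 above all control arrays. As the control values lay near the minimum, the size is uncertain, and with values below 4 set to 4 it was 6.51. In hsp-6;hsf-1 RNAi clec-60 read 9.98, 7.60 and 12.45, overlapping these arrays, and in hsp-6 RNAi 3.74, 3.58 and 4.51.

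clec-52 read 10.53, 10.79 and 9.44 against 5.83, 5.2 and 3.38 and rose by 5.45 (SE 0.64, adjusted p = 0.00338). Unlike clec-60 it was above hsp-6;hsf-1 RNAi as well, by 4.41 (adjusted p = 0.0200). clec-5 read from 10.44 to 11.34 against 7.81, 7.93 and 7.59, a rise of 3.15 (SE 0.27, adjusted p = 0.000512), and was also above both other RNAi groups, by 2.73 and 2.17 (adjusted p = 0.000859 and 0.00601). clec-61 rose by 5.22 (SE 0.92, adjusted p = 0.0225), and its call was lost without replicate 2 labelled hsp-6;dve-1 (adjusted p = 0.0962). The remaining 57 of 61 tested lectin genes did not pass, and the list's median was 0.45; 159 more on the array did not reach the filter.

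Antimicrobial effectors rose in part, with 7 of 52 tested genes higher and none lower, and a median of 0.95. The shares over all genes were 1.94% higher and 0.349% lower. spp-12, a saposin-like protein related to amoebapores, read 12.01, 11.23 and 11.67 against 7.20, 6.77 and 3.54, a rise of 5.80 (SE 1.00, adjusted p = 0.0220). In hsp-6 RNAi alone it was at 8.69, 9.59 and 8.89, between those groups, and the hsp-6;dve-1-labelled arrays did not differ from it beyond the test's threshold (2.58, adjusted p = 0.147). lys-6, a lysozyme gene, read 8.92, 10.95 and 8.60 against 4.18, 4.65 and 4.62 and rose by 5.01 (SE 0.97, adjusted p = 0.0325), though not with the block (adjusted p = 0.0542).

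irg-5, an infection response gene, rose by 2.93, and the epidermal antimicrobial peptide genes nlp-29 by 2.11, nlp-33 by 1.83 and nlp-27 by 1.3 (adjusted p from 0.0220 to 0.0338). spp-27 was at the edge of the threshold, 1.97 higher with an adjusted p of 0.0498. The block ended the calls of irg-5 (adjusted p = 0.0542) and spp-27 (adjusted p = 0.0718), and 5 of the 52 passed with it. The count was 1 without replicate 2 labelled hsp-6;dve-1 or without empty vector replicate 1, 2 without hsp-6 replicate 1 or 3, and 0 without replicate 1 labelled hsp-6;dve-1, without empty vector replicate 3 or with no filter. It was 14 without replicate 3 labelled hsp-6;dve-1 and 16 without hsp-6;hsf-1 replicate 3.

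**Figure D4:**
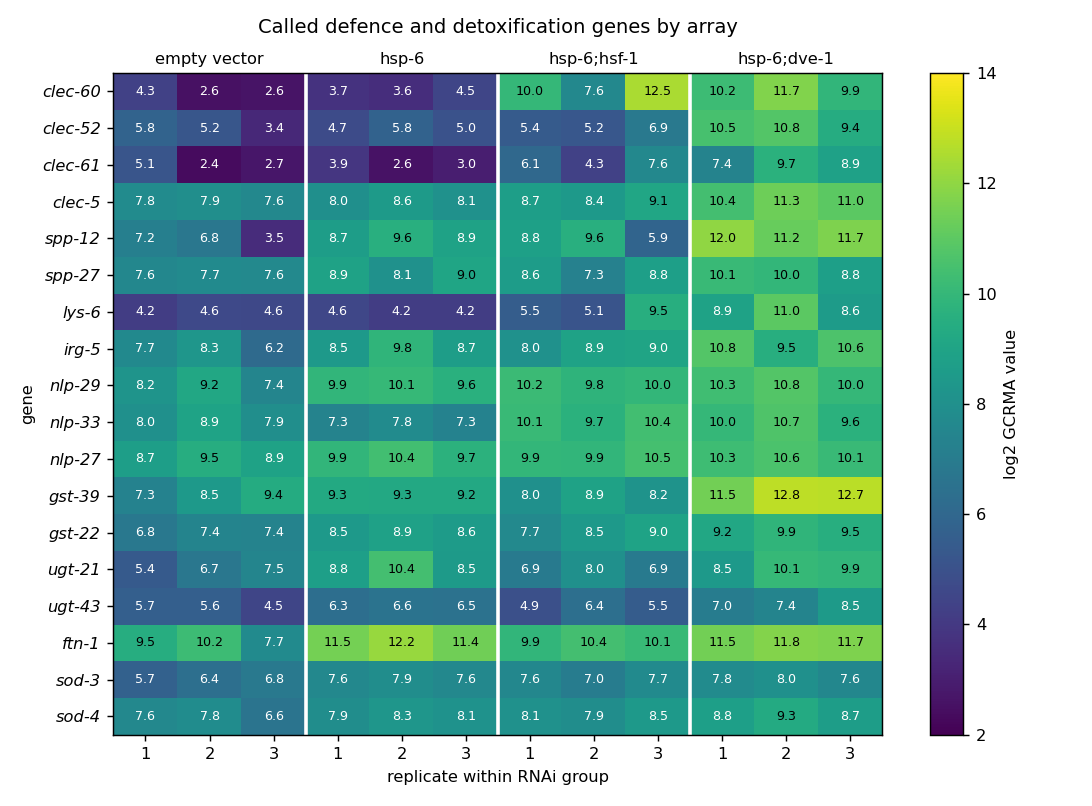
log2 GCRMA values of 18 called defence and detoxification genes (rows) in the 12 arrays (columns, replicates within RNAi group); colour and number give the value. clec-52, clec-5 and gst-39 are highest in the 3 hsp-6;dve-1-labelled arrays, whereas clec-60 is as high in hsp-6;hsf-1 RNAi and ftn-1 as high in hsp-6 RNAi.

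Among conjugating enzymes, single genes of each family were called, beside 1.94% of all genes higher. gst-39, a glutathione S-transferase gene, read 11.46, 12.79 and 12.74 against 7.33, 8.45 and 9.37, a rise of 3.95 (SE 0.49, adjusted p = 0.00366). It was also above hsp-6 RNAi by 3.07 (adjusted p = 0.00842) and above hsp-6;hsf-1 RNAi by 3.95 (adjusted p = 0.00601), so all 3 arrays stood above the other 9. gst-22 read 9.19, 9.86 and 9.51 against 6.82, 7.39 and 7.37 and rose by 2.32 (SE 0.32, adjusted p = 0.00769), and both calls held whichever array was left out. The other 25 of 27 tested gst genes did not pass, and 21 of the 27 were higher on average (median 0.59).

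Of 42 UDP-glucuronosyltransferase genes, ugt-21 (2.93) and ugt-43 (2.39) rose, and of 41 cytochrome P450 genes cyp-34A8 (1.63) and cyp-33A1 (1.46) rose. Over all genes 1.94% were higher. On average 31 of the 42 (median 0.32) and 33 of the 41 (median 0.73) were higher. ugt-43 (adjusted p = 0.0542) and cyp-33A1 (adjusted p = 0.0610) lost their calls with the block. ftn-1, the intestinal ferritin that stores iron, read 11.45, 11.77 and 11.68 against 9.49, 10.21 and 7.72 and rose by 2.49 (SE 0.49, adjusted p = 0.0338). The superoxide dismutase genes sod-4 (extracellular) and sod-3 (mitochondrial) rose by 1.59 and 1.47, with adjusted p of 0.0353 and 0.0360, and neither passed with the block (adjusted p = 0.0543 and 0.0625).

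Some genes with little or no annotation read higher in these arrays than in every other group, in part through the filter. Over all tested probe sets, the 3 hsp-6;dve-1-labelled arrays were above the other 9 in 117 (0.97%), in 31 by more than 1 (0.257%), and below them in 48 (0.398%). Of the tested probe sets, 22 passed the filter through these 3 arrays alone, so their place among the 117 was fixed by the filter. K02E10.4 was called by 3 probe sets. At the first of them it read 5.63, 6.41 and 5.39 in the hsp-6;dve-1-labelled arrays and at most 2.24 in the other 9, a rise of 3.57 (SE 0.29, adjusted p = 0.000442). The other K02E10.4 probe sets rose by 3.23 and 3.13 (adjusted p = 0.00366 each), in the same arrays.

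C26B9.2 read 5.29, 4.99 and 6.28 and was at the minimum of 2.16 in all 9 others, a rise of 3.36 (SE 0.32, adjusted p = 0.000863). K07G5.4 read 4.98, 6.49 and 5.78 against 2.17, 2.16 and 2.17, a rise of 3.59 (SE 0.34, adjusted p = 0.000863). These 3 genes passed the filter through the hsp-6;dve-1-labelled arrays alone. F42C5.3 read 8.60, 7.44 and 10.43 against 2.82, 2.80 and 2.16 (6.23, SE 0.67, adjusted p = 0.00161). As these control values lay at or near the minimum, the size of its difference is uncertain.

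E04D5.4 (3.66), F57G4.11 (4.24), B0244.5 (2.46) and pho-4 (3.40), an acid phosphatase gene, were likewise called against empty vector, hsp-6 RNAi and hsp-6;hsf-1 RNAi, and their first calls held without any single array. Of these, E04D5.4, F57G4.11 and B0244.5 also passed the filter through the hsp-6;dve-1-labelled arrays alone, so their calls follow in part from the filter. ddn-1 and B0507.8, immediate neighbours in the genome annotation, rose together. ddn-1 read 10.12, 10.50 and 12.92 against 6.18, 6.52 and 3.65 (5.73, SE 0.85, adjusted p = 0.0103). B0507.8 read 8.42, 8.75 and 11.58 against 4.56, 4.09 and 3.84 (5.42, SE 0.80, adjusted p = 0.0103). Both were highest in replicate 3, like the pals genes. In hsp-6;hsf-1 RNAi ddn-1 read 7.56, 8.64 and 8.98, and B0507.8 read 5.46, 6.72 and 5.83. Neither was called against that group (2.78 and 3.58, adjusted p = 0.892 and 0.266).

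The 4 heat-inducible cytosolic heat shock genes were all higher on average than in empty vector, with a median difference of 1.54, and 1 of them passed the test. hsp-70, the heat-inducible cytosolic Hsp70, read 9.08, 9.28 and 9.65 against 6.83, 6.67 and 5.90 and rose by 2.87 (SE 0.57, adjusted p = 0.0351). The call was lost with the block (adjusted p = 0.0515). It remained 3.59 below hsp-6 RNAi (a difference of -3.59, adjusted p = 0.00842), where the arrays read 13.13, 12.62 and 13.03.

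The small heat shock protein genes hsp-16.2 and hsp-16.41 lay 1.15 and 1.28 above empty vector without passing (adjusted p = 0.325 and 0.255). hsp-16.2 read 8.09, 9.66 and 8.01 against 7.67, 7.66 and 6.99, with every array above the controls. Both were far below hsp-6 RNAi alone, with differences of -4.48 and -4.44 (adjusted p = 0.0106 and 0.00896). hsp-17 was 1.80 higher than empty vector (adjusted p = 0.162) and its groups overlapped. None of 7 other small heat shock protein genes (median 1.19) and none of 27 constitutive cytosolic chaperone genes (median -0.18) passed.

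None of the listed targets of the mitochondrial response was called higher. Of 25 genes for mitochondrial chaperones, proteases and import, hsp-6, itself an RNAi target, alone was called, downwards, and the median was -0.01. hsp-60, the matrix chaperonin, read 9.20, 8.66 and 9.17 against 9.81, 9.73 and 9.61, a difference of -0.71 that did not pass (adjusted p = 0.174). None of 21 genes of the endoplasmic reticulum unfolded protein response passed, and hsp-4, the BiP chaperone of that compartment, differed by -0.66 (adjusted p = 0.0872). atfs-1 differed by -0.19 (adjusted p = 0.598).

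Single genes of energy metabolism were called, beside 1.94% of all genes higher and 0.349% lower. aldo-1, a glycolytic aldolase, read 8.97, 9.85 and 9.59 against 7.43, 7.61 and 7.35 and rose by 2.01 (SE 0.33, adjusted p = 0.0179), as the 1 called gene of 15 in glycolysis. A second aldo-1 probe set was 1.35 higher and just missed the threshold (adjusted p = 0.0527). None of 33 genes of the citric acid and glyoxylate cycles, 54 of the mitochondrial ribosome, 61 of the cytosolic ribosome and 33 of the proteasome passed when each gene was read from its brightest probe set. Of 60 respiratory chain genes, cyc-2.2, a cytochrome c gene, rose by 4.11 and ndub-11, a complex I subunit, by 0.51, and neither call held with the block (adjusted p = 0.0727 and 0.0795).

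Among the listed genes of fat synthesis and breakdown, atgl-1 and acly-1 were called lower. atgl-1, the adipose triglyceride lipase that releases stored fat, fell at each of its 3 called probe sets, by 1.00, 1.19 and 1.09 (adjusted p = 0.0403, 0.0353 and 0.0498). At the first of them it read 8.31, 7.84 and 8.19 against 9.45, 8.73 and 9.15, without overlap. acly-1, an ATP citrate lyase that supplies acetyl-CoA for fat synthesis, fell by 0.85 (adjusted p = 0.0498), while its second probe set did not pass (-0.62, adjusted p = 0.163). The block ended these calls, with adjusted p from 0.0517 to 0.0707. fasn-1, the fatty acid synthase, differed by -0.67 (adjusted p = 0.172), pod-2, the acetyl-CoA carboxylase, by -0.53 (adjusted p = 0.234) and the desaturase fat-5 by -0.91 (adjusted p = 0.0632).

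The largest falls with a single gene name were mbug-1 and folt-2. mbug-1 read 5.54, 6.52 and 6.60 against 11.45, 10.96 and 8.78, an 18.1-fold fall (-4.18, SE 0.58, adjusted p = 0.00769), and was the 1 fall that held whichever array was left out. mbug-1 read 7.20, 7.71 and 8.07 in hsp-6;hsf-1 RNAi and 11.73, 11.22 and 11.72 in hsp-6 RNAi. folt-2, a folate transporter gene, read 4.95, 5.75 and 5.11 against 7.02, 10.28 and 8.82 (-3.44, SE 0.68, adjusted p = 0.0350). The empty vector arrays were spread over more than 3 for this gene.

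The other falls were shallower and started from genes at middle or high level. Below mbug-1 and folt-2 came lips-11, a lipase-like gene (-2.04), tcc-1 (-1.91), sax-7, a neuronal adhesion protein related to L1CAM (-1.66), and pph-6, a protein phosphatase catalytic subunit (-1.61). C17H11.2 (-1.52), alg-1, an Argonaute protein of the microRNA pathway (-1.52), rme-8, an endosomal J-domain protein (-1.49), and etr-1, an RNA-binding protein (-1.33), followed, with adjusted p from 0.0305 to 0.0498 in this set of 8. alg-1 read 5.95, 5.18 and 5.77 against 7.16, 6.92 and 7.36, and it was as low in hsp-6 RNAi, at 5.58, 5.18 and 5.59. Its 2 other probe sets were 0.43 and 0.91 below empty vector on average (differences of -0.43 and -0.91) and did not pass. With the block, alg-1 (adjusted p = 0.0378) and C17H11.2 kept their calls, and the others of this set did not (adjusted p from 0.0610 to 0.0816).

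Of 28 stress regulator genes, eel-1, a HECT-type ubiquitin ligase, fell by 1.27 (adjusted p = 0.0417), and dve-1 was the 1 that rose. skn-1, the Nrf-type regulator of detoxification genes, read 7.99, 7.64 and 8.02 against 9.15, 8.59 and 9.29 at the probe set that passed (-1.12, adjusted p = 0.0362). Its 2 further probe sets differed by -1.23 and -0.96 and did not pass (adjusted p = 0.0581 and 0.0789). None of these 3 regulators was called with the block. None of 108 nuclear hormone receptor genes passed, with a median of 0.33.

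Several tissue marker sums differed between the groups, and unevenly among the arrays. The summed level of 45 major sperm protein genes, on the log2 scale, was 17.15, 17.87 and 14.82 in the hsp-6;dve-1-labelled arrays and 12.57, 14.61 and 10.59 in the empty vector arrays. The groups did not overlap, replicate 3 labelled hsp-6;dve-1 was close to the highest control array, and all 45 genes were higher on average, with a median of 4.1. msd-4 (4.73, adjusted p = 0.0454) was the 1 called. Without replicate 3 labelled hsp-6;dve-1 34 of the 45 passed, without hsp-6;hsf-1 replicate 3 or 2 12 and 6, and without empty vector replicate 2 8. With the block, and without any other array, 0 passed. In hsp-6;hsf-1 RNAi the sum of the 45 genes was 17.64, 16.09 and 17.53, within the range of the hsp-6;dve-1-labelled arrays.

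Cuticle collagens and body wall muscle genes showed a like order of arrays. 85 col collagen genes summed to 17.92, 18.27 and 17.67 against 16.04, 17.54 and 17.26, and 83 were higher on average, with a median of 1.14, though none passed, or 22 without replicate 3 labelled hsp-6;dve-1. The 22 muscle genes summed to 15.91 in replicate 1, 15.32 in replicate 3 and more than either in replicate 2, against 14.64, 15.05 and 14.76, with a median of 1.21. 4 of them passed, unc-27 and pat-10 (troponin I and C) by 1.31 and 0.91, clik-1, a calponin-like protein, by 1.27 and mlc-2, a myosin light chain, by 1.05. With the block 3 passed, and mlc-2 did not (adjusted p = 0.0529). Over all genes 1.94% were higher in the main fit. The muscle myosin genes unc-54 (1.74, adjusted p = 0.139) and myo-3 (1.62, adjusted p = 0.131) did not pass. Muscle calls fell to 0 without replicate 1 or 2 labelled hsp-6;dve-1, empty vector replicate 1 or 3, or hsp-6 replicate 1 or 3, and rose to 15 without replicate 3 labelled hsp-6;dve-1 and 8 without hsp-6;hsf-1 replicate 3. The collagen sum was also above every empty vector array in hsp-6;hsf-1 RNAi, at 18.21, 17.75 and 18.35.

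Germline and embryo markers were lower on average, and none passed. 39 germline genes summed to 16.06, 15.50 and 16.18 against 16.24 or more in every control array, and 12 early embryo genes to 13.53, 13.08 and 13.64 against 13.79, 13.70 and 13.90. Their medians were -0.50 and -0.80. In hsp-6;hsf-1 RNAi the germline sum was 16.02, 16.12 and 15.37, and the early embryo sum was 13.46, 13.61 and 12.86. 19 intestinal genes summed to 16.27 in replicate 1, 15.79 in replicate 3 and more than either in replicate 2, against 15.74, 16.26 and 16.19, overlapping, and 1 of them, the cathepsin B gene cpr-1, rose (2.35, adjusted p = 0.0366), though not with the block (adjusted p = 0.0597). None of 13 male soma genes on the array reached the filter. Replicate 3 labelled hsp-6;dve-1 was the lowest of its group in sperm, collagen and muscle sums and the highest in pals genes, and the part of these tissue values in the other results was not tested.

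**Figure D5:**
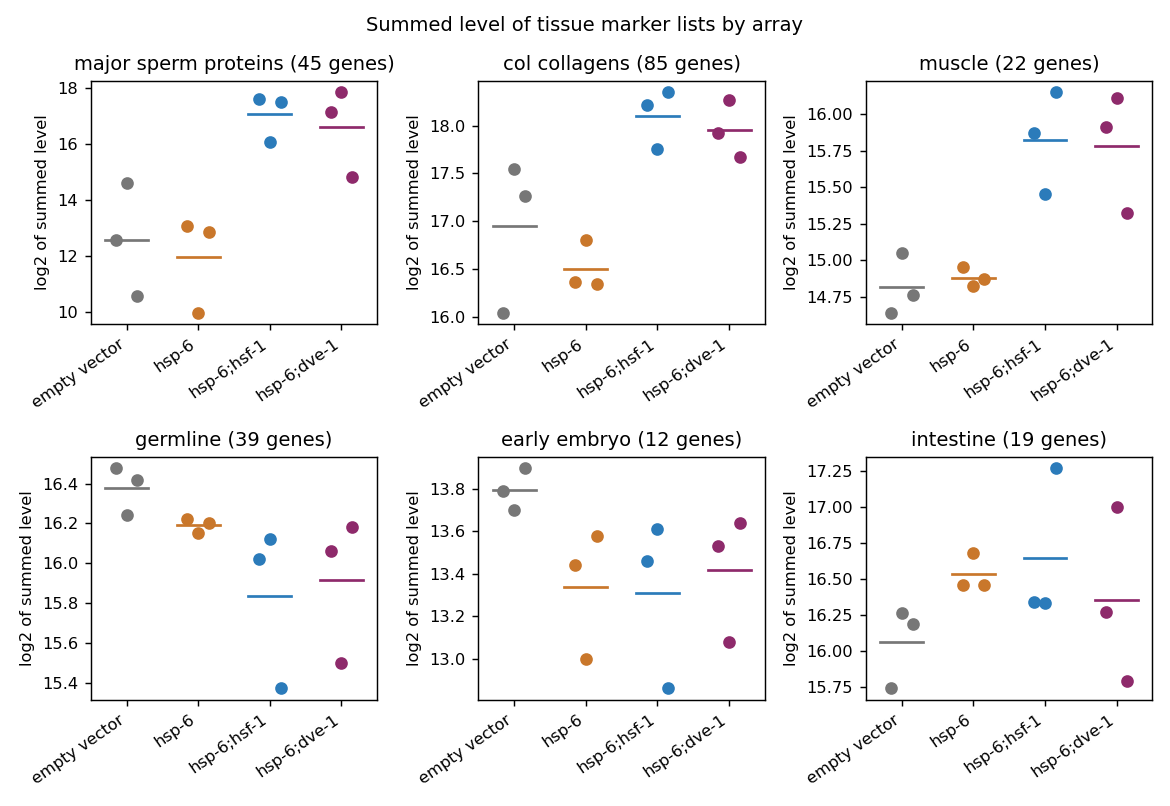
Summed level of 6 tissue marker lists, as log2 of the sum of linear values, in each of the 12 arrays; points are arrays and lines are group means, and the y axes differ in range. Sperm, collagen and muscle sums are above all empty vector arrays in the 3 hsp-6;dve-1-labelled arrays, and replicate 3 is the lowest of the 3. Sperm and collagen sums are above all empty vector arrays in hsp-6;hsf-1 RNAi as well.

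The same arrays were tested against both other RNAi groups, which share the hsp-6;dve-1-labelled arrays with the comparison above. Against hsp-6 RNAi, 335 probe sets were higher (2.78%) and 357 lower (2.96%), 692 in all (5.74%). Against hsp-6;hsf-1 RNAi, 27 were higher (0.224%) and 1 lower (0.00829%), 28 in all (0.232%), with the fall at Y47H10A.5 (-1.92, adjusted p = 0.0287). The 27 included K02E10.4 at 3 probe sets, fbxa-75, pals-5, pals-11, clec-52, clec-5, gst-39, F42C5.3, C26B9.2 and K07G5.4. Of these, K02E10.4, fbxa-75, pals-5, pals-11, C26B9.2 and K07G5.4 passed the filter through the hsp-6;dve-1-labelled arrays alone. Their calls thus follow in part from the filter, and with a filter at log2 6 the 27 became 6. pals-5 was 4.70 above hsp-6 RNAi and 4.36 above hsp-6;hsf-1 RNAi (adjusted p = 0.00752 and 0.0394).

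Other rises were shared in size with 1 of the groups. The ferritin gene ftn-1 differed from hsp-6 RNAi by -0.05 (adjusted p = 0.968), ugt-21 by 0.24 (adjusted p = 0.862), skr-5 by 0.32 (adjusted p = 0.661) and sod-3 by 0.09 (adjusted p = 0.883). clec-60 differed from hsp-6;hsf-1 RNAi by 0.60 (SE 1.00, adjusted p = 1), and the muscle gene unc-27 by -0.09 (adjusted p = 1). Such p-values do not show that the groups were alike at these genes.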

How the data were processed

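RNA was hybridised to Affymetrix arrays. Values are the authors' deposited log2 signals after GCRMA, which per the submitters' processing notes was run with GCOS 1.4; further settings are not stated in these sources. Arrays have no read depth, and their number limits precision. Names came from the platform annotation: 20766 probe sets had a single symbol (20701 also in the RefSeq table), 887 had more, 895 had none, and 77 controls were left out. No sequence is printed.

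limma 3.58.1 (R 4.3.3) fitted 4 group means over 12 arrays with an intensity trend. A call is a two-sided Benjamini-Hochberg adjusted p below 0.05 over 12057 probe sets, and SE is the fit's standard error. The procedure was tested on simulated data. Lists use each gene's brightest probe set, without a set test. Members, lists, rules and tests were chosen with earlier results of these data known. The naming rule takes the targets, the 12 largest called rises and falls without overlap, the 3 largest per list, genes also called against hsp-6 RNAi, and 17 genes by name. Genes outside it, and the lists of the CUL-6 ligase and eol-1, were chosen after their values were seen.

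Pairing was checked from deviations about group means. Same-numbered hsp-6;dve-1 and empty vector arrays correlated at 0.36, 0.25 and 0.11, other numbers at -0.26 to 0.08. Numbers were therefore taken as pairs, and blocked values stand beside calls they end. The block covered all 12 arrays. Same-numbered hsp-6;hsf-1 and empty vector arrays correlated at 0.30, -0.19 and -0.04, and hsp-6 and empty vector arrays at 0.10, 0.02 and -0.05. Pairing was thus not shown for those groups. Alternatives changed the filter, scaling, variance model, samples and block, or left out each array.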

Additional observations from a re-analysis of the deposited data

How the results depend on the processing

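Against empty vector, 211 probe sets were higher and 63 lower. The counts were 53 and 30 with no filter, 36 and 0 when the 2 compared groups alone were fitted, and 131 and 18 with the replicate block. They were 132 higher after quantile normalization again, 154 lower after centring on array medians, and 40 lower when a change of more than 1 on the log2 scale was asked as well. Leaving out each array in turn gave 38 to 800 higher and 3 to 351 lower. hsp-6 RNAi replicates 1 and 3 correlated at 0.997, and averaging them as 1 sample gave 70 and 4; averaging, and leaving out the 2 arrays farthest from the rest, were chosen after seeing the data.

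Against hsp-6 RNAi, 335 were higher and 357 lower. The counts were 122 higher with no filter, 220 and 213 with the 2 groups alone, 175 and 209 with the replicate block, 55 and 51 after averaging, and 234 lower with a change of more than 1. Leaving out each array gave 52 to 679 higher and 49 to 563 lower.

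Against hsp-6;hsf-1 RNAi, 27 were higher and 1 lower, and its alternatives were likewise chosen after seeing the data. The counts were 16 higher with no filter, 6 and 0 with a filter at log2 6, 16 and 0 with low values set to 4, 1 and 0 with the 2 groups alone, and 15 and 0 with the replicate block or after averaging. Leaving out each array gave 11 to 24 higher and 0 to 1 lower. The fits of 2 groups used fewer samples, and the cause of the other shifts was not tested.

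Of 62 named calls, 8 held whichever single array was left out. 55 were lost with the 2 groups alone, 52 with no filter, 51 and 50 without empty vector replicate 3 or 1, 47 without replicate 2 labelled hsp-6;dve-1, and 29 with the replicate block. For the pair with hsp-6 RNAi the same-numbered deviations correlated at 0.28, 0.12 and -0.02, so those arrays share a number only. No called direction reversed under any alternative run. The size of a difference from values near the minimum of 2.16 is uncertain.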

Other observations

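Of 179 called genes that rose and were placed on the RefSeq annotation, 6 had an immediate neighbour that also rose, in 3 runs. These were the F-box pair fbxa-163 and fbxa-164, the pair ddn-1 and B0507.8, and the pair M60.4 and endu-2. Whether 6 is more than for any other 179 genes was not tested.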
